A study of Rattus norvegicus with 16 samples.

Results

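The genes encoding the proteins of the cytosolic ribosome were examined in the right hippocampus of rats that received iron in the amygdala, a model of posttraumatic epilepsy. Members were the probes for transcripts whose RefSeq accession carries a rat symbol of Rpl or Rps followed by a digit, Rplp, or Rpsa. Kinases of the Rps6k type were left out, which removed 3 probes. Of 109 member probes, 108 were kept, and 1 of 5 Rpl21 probes was lost because its only spot was marked as an outlier on an array. These probes covered 75 genes of the 26565 features tested, 9583 of which had a gene symbol. The 75 genes comprised 46 of the large subunit, 4 of them of the acidic stalk, and 29 of the small subunit. Each was represented by its brightest probe, and all 75 were well above background on all 16 arrays.

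The series held 16 male Wistar rats, 1 Agilent 1-colour array for each, in 4 groups of 4. A cannula was placed at the right amygdala at 5 weeks of age, and 5 days later 1.0 µl of solution was infused at 1.0 µl/min. Control rats received saline at pH 2.2 and were killed 15 days later, and Fe rats received 100 mM FeCl3 in saline of pH 2.2 and were killed 5 days (Fe day 5, the acute phase in the submitters' words), 15 days (Fe day 15, sub-chronic) or 30 days (Fe day 30, chronic) after infusion. Every control was taken at day 15, so rats of Fe day 5 were younger and rats of Fe day 30 older than the controls, and their interval after infusion was another. Per the series' design text, recurrent seizures were observed in the Fe rats and none in the controls, and the seizure rate was not measured. Some unnamed rats also carried a preparation for microdialysis.

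Each cytosolic ribosome joins a small subunit, which holds the mRNA and reads its codons, to a large subunit, which forms the peptide bond. Ribosomal proteins are made in step with one another and with ribosomal RNA, and surplus copies are degraded. Their mRNAs begin with a cytosine and a run of pyrimidines, the 5' terminal oligopyrimidine (TOP) sequence, through which mTOR complex 1 and LARP1 control how much of the mRNA is translated. In brain, phosphorylation of Rps6 is a common readout of this pathway in epilepsy models, and several ribosomal protein mRNAs serve as reference genes in quantitative PCR. An array measures the mRNA and not its translation or the protein.

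The start of the transcript is shown for 10 members because the TOP sequence is the feature that defines their shared translational control. Each line gives, from RefSeq on the build GRCr8, the 10 bases before the annotated start and the 20 from it, 5' to 3', and capitals mark a run of a C followed by at least 4 C or T that begins within 5 bases of that start. Lower case throughout means that no such run lay there. Pyrimidines before the marked C were not counted, so a longer run can reach upstream of the capitals, as in Rpl35. In Rps2 a pyrimidine run that begins farther upstream ends at the annotated start and is unmarked. The intervals are chr2:23814507-23814536 (plus strand) for Rps23, chr1:172974563-172974592 (plus strand) for Rpl27a, chr10:83519054-83519083 (plus strand) for Rpl19, chr20:4933735-4933764 (plus strand) for Rps18, chr8:71290853-71290882 (minus strand) for Rplp1, chr7:1643385-1643414 (minus strand) for Rps26 and chr3:43165902-43165931 (minus strand) for Rpl35. For the 3 without a run they are chr10:14251838-14251867 (plus strand) for Rps2, chr7:113507971-113508000 (minus strand) for Rpl3 and chr7:25007010-25007039 (minus strand) for Rps12l4.
Rps23: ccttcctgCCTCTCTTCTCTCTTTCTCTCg
Rpl27a: cttggtgggCTCCTCCCTCTTTCTTTTCTg
Rpl19: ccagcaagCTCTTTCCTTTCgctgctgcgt
Rps18: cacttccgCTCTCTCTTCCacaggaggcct
Rplp1: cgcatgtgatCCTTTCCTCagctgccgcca
Rps26: ccgccgggtCCTCTTTCgagtcttggctcc
Rpl35: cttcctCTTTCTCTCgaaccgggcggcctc
Rps2: tctttttcttcgggaaaacacgtgagtctg
Rpl3: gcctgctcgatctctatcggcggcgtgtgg
Rps12l4: ggcacagaatgctggcgcagggtgcagcgt

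The RefSeq promoter table, which runs from 250 bases before to 50 bases after each start, held 60 of the 75 members in 61 windows. A C followed by at least 4 C or T began within 5 bases of the start in 36 of these 61 windows (59.0%), against 17.0% of all 33469 windows in the table. The longer form, with at least 7 C or T after the C, was found in 30 windows (49.2%) against 4.06%. The longest runs so counted were those of Rps23, at 21 bases, and Rpl27a, at 20 bases. CCGGAA, the core recognised by ETS factors, searched on both strands anywhere in the window, was in 30 member windows (49.2%) against 15.0%. GGGCGG, the core recognised by Sp1, was in 35 (57.4%) against 33.1%. TATAAA was in 5 (8.20%) against 14.2%. These letters describe the annotated windows alone, and an annotated start a few bases off moves a run out of reach.

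Levels are given on a log2 scale relative to the 75th percentile of the same array, so that 0 is that percentile. The signal at the 75th percentile ranged from 553 to 924 over the 16 arrays, 74.2% to 81.6% of spots were well above background and no spot was saturated. Neurons were represented by 9 of 10 marker genes, all above background in every group, with a summed level of 118 to 164 times the 75th percentile. The sum was 178 to 339 for 9 oligodendrocyte markers and 131 to 156 for 7 of 8 astrocyte markers. Such sums give no order of cell numbers. Markers of choroid plexus or meninges were high in Fe day 5 replicates 2 and 3 and Fe day 30 replicate 3. The summed level of 8 measured choroid plexus markers (of 16 listed) was 4.91 to 6.83 in the controls. It was 7.35 to 39.9 at Fe day 5, 5.99 to 8.81 at Fe day 15 and 4.64 to 362 at Fe day 30. Every Fe day 5 array thus exceeded every control. For 11 measured meninges markers (of 13) the sum was 9.36 to 11.1 in the controls. It was 10.2 to 195 at Fe day 5, 10.2 to 19.4 at Fe day 15 and 9.56 to 156 at Fe day 30. Values are therefore also given without these 3 arrays, which does not remove the smaller rises on other Fe arrays. All 5 measured blood markers (of 7) were higher than in the controls at each Fe day, with median differences of 1.22, 1.01 and 0.44. At an unadjusted p under 0.05 by limma 2, 3 and 1 of them were higher, beside 4.06%, 5.17% and 3.12% of all features, with 0 called. The part of blood in the member values was not tested. In RNA from whole tissue, fewer cells of a type and less RNA per cell cannot be told apart.

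The ribosomal protein probes were bright and varied little between rats. The median member lay at the 98.7th percentile of features by signal, and 67 of the 75 were in the top 10%, which describes brightness on the array and gives no order of abundance between genes. The residual SD between rats of a group was 0.090 for the median member and 0.19 for the median feature. Its median was 0.11 in the 1329 features of the top 5% by signal, which include 58 members. It was 0.091 in 22 other genes with TOP mRNAs and 0.10 in 63 mitochondrial ribosomal protein genes. A low spread was thus not particular to the members. The residual SD was under 0.1 in 48 members, where 12.7% of all features were so tight, and over 0.25 in 5, against 35.9% of all features. The median range of the 4 group means was 0.092 over the members and 0.22 over all features.

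**Figure D1:**
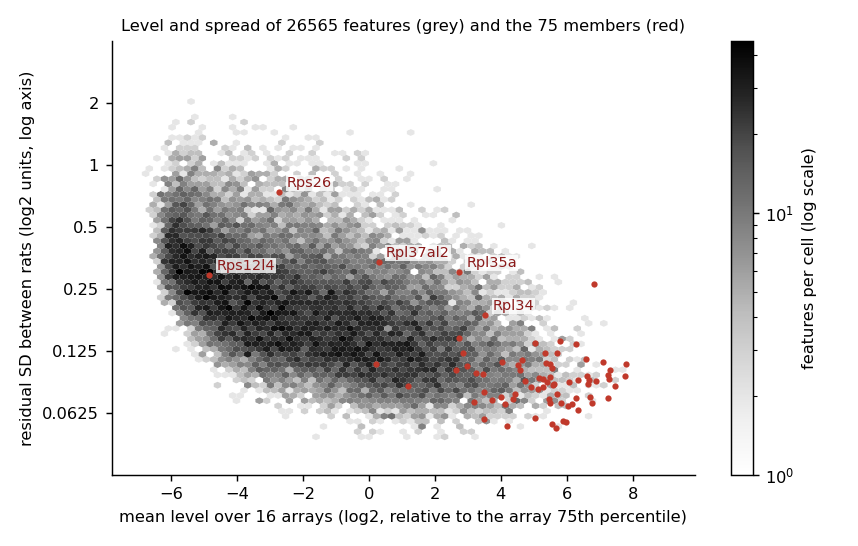
Residual SD between rats of a group (y, log2 units on a log axis) against the mean level over 16 arrays (x, log2 relative to the array's 75th percentile) for 26565 features (grey cells, darker with more features) and the 75 members (red points). Most members sit at the lower right, bright and tight, and 5 have an SD over 0.25, with Rps26 and Rpl37al2 the highest.

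None of the 75 members passed the test at any of the 3 Fe days against the controls. limma called 0 of 75 members at Fe day 5, 0 at Fe day 15 and 0 at Fe day 30 at a Benjamini-Hochberg adjusted p under 0.05, against 0%, 0% and 0.00753% of all features called (0, 0 and 2 of 26565). The lowest adjusted p of a member was 0.473 at Fe day 5, 0.353 at Fe day 15 and 0.633 at Fe day 30. At an unadjusted p under 0.05, 3 members were lower and 0 higher at Fe day 5, where 6.28% of all features were lower and 4.06% higher. The corresponding counts were 3 lower and 0 higher at Fe day 15, beside 6.33% and 5.17%, and 0 lower and 1 higher at Fe day 30, beside 4.66% and 3.12%. The members thus made up 4.00%, 4.00% and 1.33% at this level, below the 10.3%, 11.5% and 7.77% of all features.

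A test that is not passed does not show equal levels, so the intervals of the differences were counted. The 95% interval lay wholly within 1.2-fold either way for 48 of 75 members at Fe day 5, 62 at Fe day 15 and 56 at Fe day 30, against 19.5%, 18.7% and 21.0% of all features. It lay within 1.5-fold for 73, 72 and 73 members, against 68.4%, 68.1% and 69.3%. Of the 63 mitochondrial ribosomal protein genes, 65.1%, 55.6% and 60.3% had intervals within 1.2-fold at the 3 days. The members outside 1.5-fold were Rps26 and Rpl37al2 at each day and Rps12l4 at Fe day 15, and the interval of Rps26 was the widest at each day. Intervals of this width cover the spread between rats under this scaling and not the choice of scaling itself.

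**Figure D2:**
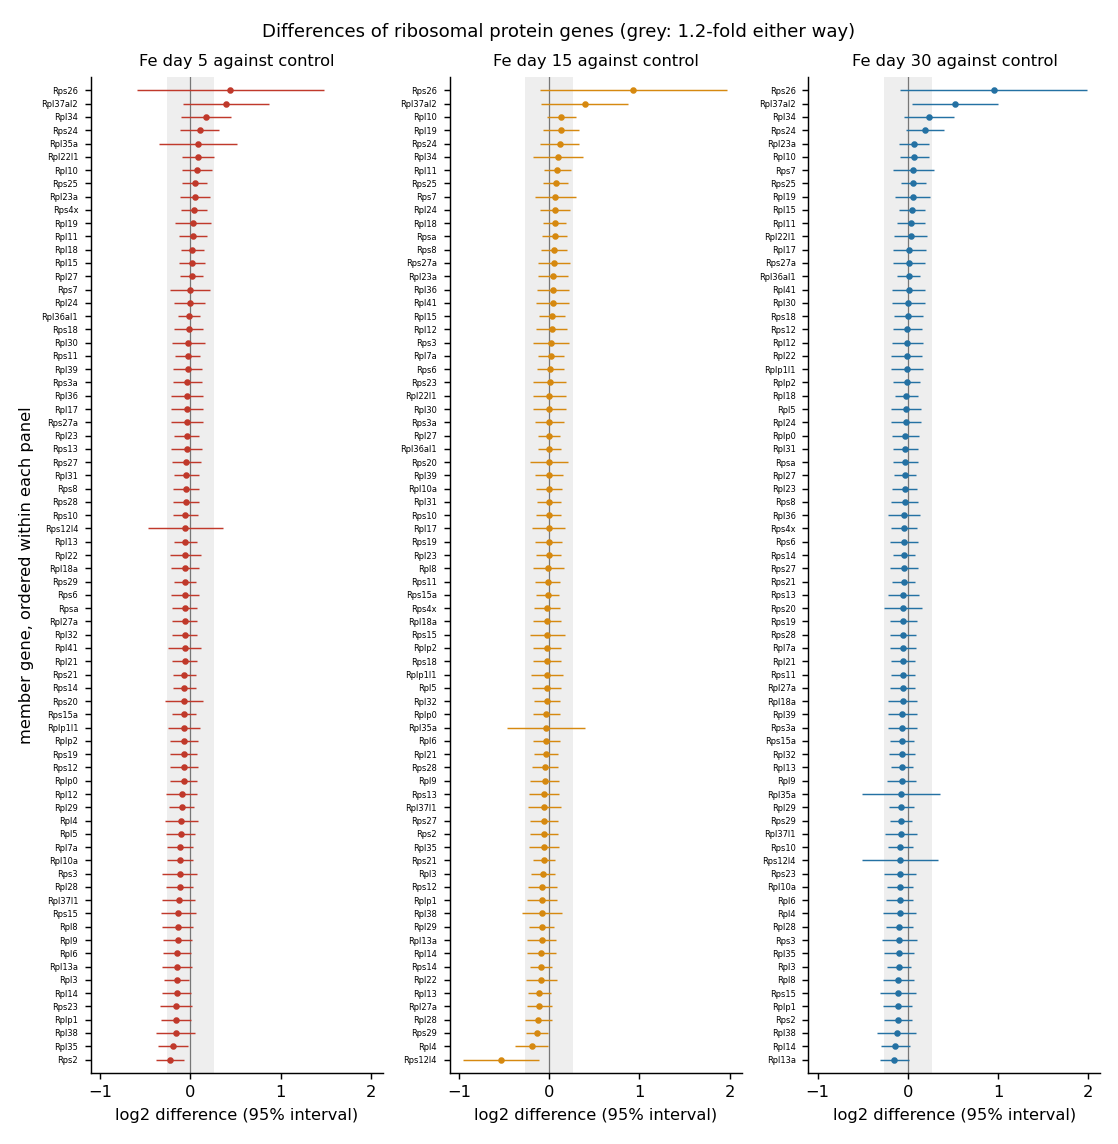
Log2 difference (x) of 74 of the 75 members (y, ordered within each panel) between Fe day 5, Fe day 15 or Fe day 30 and the controls, with 4 rats a group. Points are fitted differences, lines their 95% intervals and the grey band 1.2-fold either way. 48, 62 and 56 intervals lie inside the band, and Rps26 has the longest in each panel.

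In the fit of all 16 arrays the small differences leaned downward under the 75th percentile scaling and upward under quantile or cyclic loess normalization. The median member difference was -0.057 at Fe day 5, with 59 of 75 members below the control mean, -0.011 at Fe day 15, with 47 below, and -0.044 at Fe day 30, with 56 below. All features had medians of -0.017, 0.0014 and -0.013, with 54.2%, 49.7% and 53.4% below 0. The 1329 features in the top 5% by signal, which include 58 members, had medians of -0.066, -0.026 and -0.056. Large subunit members gave -0.064, -0.016 and -0.038, and small subunit members gave -0.055, -0.0074 and -0.047. Quantile normalization gave member medians of 0.027, 0.012 and 0.016 with 52, 50 and 51 of 75 members higher, and cyclic loess gave 0.020, 0.026 and 0.023. With the slide as a block the medians were -0.0030, 0.00093 and 0.032. Without the 3 arrays with choroid plexus or meninges markers they were 0.00055, -0.011 and -0.065, and 0 members were called in that fit.

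**Figure D3:**
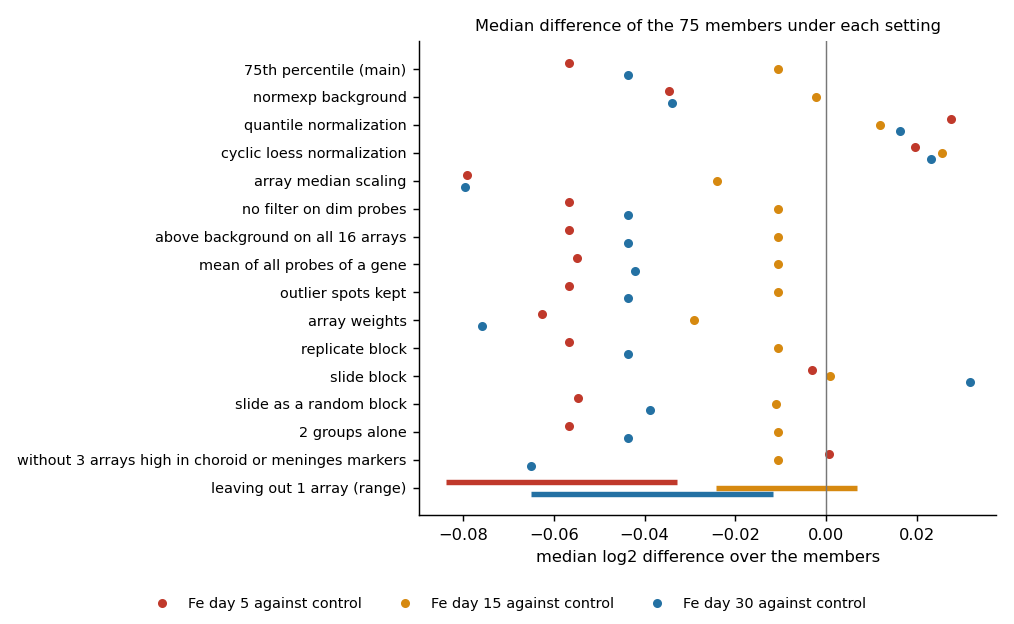
Median log2 difference over the 75 members (x) for Fe day 5, Fe day 15 and Fe day 30 against control under each setting (y). Bars in the last row span the fits that leave out 1 array. The 3 points of the 75th percentile fit on all arrays lie left of 0 and those of quantile and cyclic loess normalization right of it. Some fits that keep the 75th percentile also lie right of 0, the farthest being Fe day 30 with the slide block at 0.032.

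Array by array, the 4 groups overlapped. The median over the members of the level minus its control mean was 0.035, 0.015, -0.018 and -0.033 in control replicates 1 to 4, and -0.053, -0.15, -0.074 and 0.055 at Fe day 5. It was -0.057, -0.065, 0.033 and 0.028 at Fe day 15 and -0.11, -0.080, 0.013 and 0.021 at Fe day 30. Fe day 5 replicate 2 was the lowest, with 11 of 75 members above their control mean, and Fe day 5 replicate 4 the highest, with 52. These arrays belong to the same group. Without replicate 2 the Fe day 5 median was -0.033. Without replicate 4 it was -0.084, and 12 members (16%) were lower at an unadjusted p under 0.05, against 6.17% of all features in that fit, with 0 called.

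Arrays on 1 slide allow a comparison within the slide. Fe day 5 replicate 4 exceeded the control on its slide by 0.019. The Fe day 15 arrays differed from their slide's control by -0.072, -0.047 and 0.066, and those of Fe day 30 by -0.0021 and 0.039. These 6 within-slide differences, 3 below 0 and 3 above, gave no common direction. All controls held the same position on the slide, and among the Fe arrays only 3 of Fe day 5 shared it. Fe day 5 replicate 4, the array compared within its slide, was not among these 3. Position and group therefore cannot be told apart in any of the 6 within-slide differences, nor for Fe day 15 and Fe day 30 as groups.

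**Figure D4:**
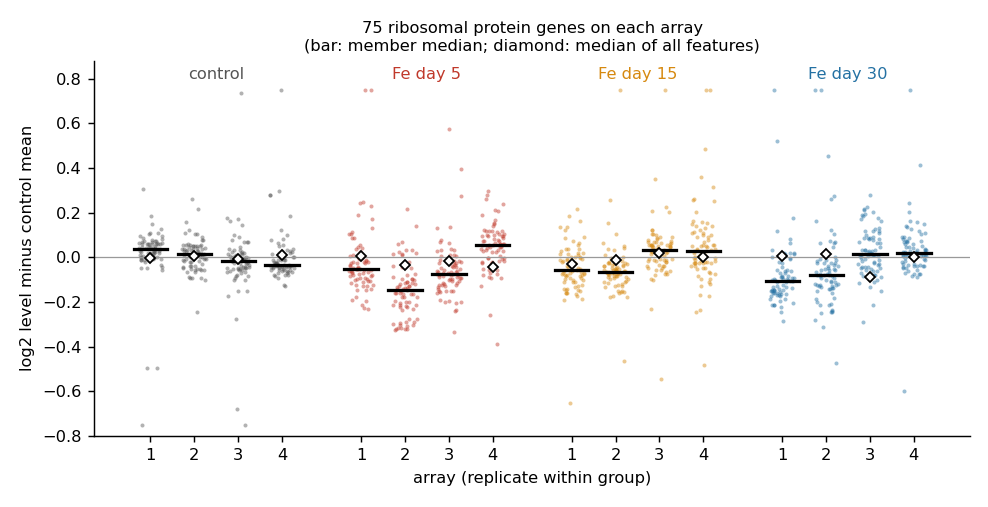
Log2 level minus the control mean (y) of the 75 members on each of 16 arrays (x), with 1 point for each gene, a bar at the member median and an open diamond at the median of all features. 13 values beyond 0.75, most of them of Rps26, are drawn at that limit. The bars of the 3 Fe groups overlap those of the controls.

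Rps2 had the lowest p of the members at Fe day 5 and over the 4 groups. Rps2 is a small subunit protein near the mRNA entrance. Its level was 6.74, 6.81, 6.70 and 6.78 in the controls, 6.54, 6.47, 6.61 and 6.50 at Fe day 5, 6.59, 6.62, 6.83 and 6.74 at Fe day 15 and 6.61, 6.51, 6.76 and 6.69 at Fe day 30. All 4 Fe day 5 rats lay below all 4 controls, while Fe day 15 and Fe day 30 overlapped both. The Fe day 5 difference was -0.23 (1.17-fold lower, 95% interval -0.38 to -0.074, unadjusted p = 0.00672, adjusted p = 0.473 by limma), and the moderated F-test gave 0.0387 unadjusted and 0.582 adjusted. The 4 Rps2 probes differed by -0.23, -0.18, -0.14 and -0.15 at Fe day 5. The sign held in all 30 other settings tried, with differences of -0.26 to -0.13 and adjusted p of 0.168 to 0.904. From Fe day 5 to Fe day 15 the level differed by 0.17 (adjusted p = 0.639).

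The other members at an unadjusted p under 0.05 against the controls at Fe day 5 were Rpl35 and Rpl3, both of the large subunit. Rpl35, which lies at the exit of the peptide tunnel, measured 7.33, 7.44, 7.19 and 7.39 in the controls, 7.21, 7.01, 7.13 and 7.21 at Fe day 5, 7.15, 7.24, 7.38 and 7.34 at Fe day 15 and 7.23, 7.15, 7.31 and 7.26 at Fe day 30. Its lowest control lay inside the Fe day 5 range, and the difference was -0.20 (95% interval -0.36 to -0.031, adjusted p = 0.473 by limma). Rpl3, which reaches toward the peptidyl transferase centre, measured 4.24, 4.18, 4.23 and 4.13 in the controls, 4.08, 3.87, 4.10 and 4.13 at Fe day 5, 4.17, 4.11, 4.14 and 4.08 at Fe day 15 and 4.11, 4.09, 4.04 and 4.15 at Fe day 30. Its Fe day 5 difference was -0.15 (95% interval -0.29 to -0.015, adjusted p = 0.474). The highest Fe day 5 rat lay just below the lowest control. In the 30 other settings Rpl35 differed by -0.25 to -0.014 and Rpl3 by -0.18 to -0.087. Under quantile or cyclic loess normalization or the slide block, 0 members had an unadjusted p under 0.05 at Fe day 5. Of all features 10.5%, 10.7% and 4.18% did in these fits. Counted over all members, 3 lay wholly below the controls at Fe day 5 and 0 above, where 5.09% of all features lay below and 2.75% above. These were Rps2, Rpl3 and Rpl6, the last chosen after its values were seen.

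At Fe day 15 the lowest p belonged to Rps12l4, a copy of the small subunit gene Rps12 in the annotation. It measured -5.17, -4.62, -4.52 and -4.40 in the controls, -4.45, -4.54, -4.88 and -5.07 at Fe day 5, -5.33, -5.14, -5.22 and -5.16 at Fe day 15 and -4.66, -4.41, -4.71 and -5.28 at Fe day 30. The 4 Fe day 15 rats were the tightest group and low, although control replicate 1 reached their range. The difference from the controls was -0.54 (1.45-fold lower, 95% interval -0.96 to -0.12, adjusted p = 0.353 by limma). This probe was dim, at the 14.0th percentile of features by signal, and under normexp background correction its difference from Fe day 5 turned from -0.48 to 0.016. Rps12 itself differed by -0.075 at Fe day 15 by its brightest probe and by 0.0033 by its other probe.

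Rps29, a small zinc-binding protein of the small subunit, measured 5.76, 5.74, 5.72 and 5.72 in the controls, 5.67, 5.60, 5.65 and 5.78 at Fe day 5, 5.60, 5.56, 5.66 and 5.61 at Fe day 15 and 5.59, 5.71, 5.65 and 5.70 at Fe day 30. All 4 Fe day 15 rats lay below all 4 controls, by -0.13 on average (95% interval -0.25 to -0.0090, adjusted p = 0.411 by limma), and the Fe day 30 rats lay below them too, by -0.075 (adjusted p = 0.724). Rpl4, a large subunit protein lining the peptide tunnel, measured 4.72, 4.63, 4.89 and 4.64 in the controls, 4.50, 4.58, 4.62 and 4.80 at Fe day 5, 4.59, 4.54, 4.49 and 4.48 at Fe day 15 and 4.73, 4.67, 4.43 and 4.69 at Fe day 30. Its Fe day 15 rats lay below the controls, with a difference of -0.20 (95% interval -0.38 to -0.010, adjusted p = 0.418). Without overlap with the controls, 4 members were lower and 2 higher at Fe day 15, beside 5.73% and 4.11% of all features, and 2 were lower and 1 higher at Fe day 30, beside 3.63% and 2.62%.

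At Fe day 30 the member at an unadjusted p under 0.05 was Rpl37al2, a copy of the large subunit gene Rpl37a. It measured -0.53, 0.02, 0.11 and 0.26 in the controls, 0.72, -0.01, 0.54 and 0.18 at Fe day 5, 0.04, 0.22, 0.32 and 0.86 at Fe day 15 and 0.49, 0.91, 0.17 and 0.38 at Fe day 30. Control replicate 1 stood lowest, and the upper control overlapped the Fe day 30 rats. The difference was 0.52 (1.43-fold higher, 95% interval 0.040 to 1.00, adjusted p = 0.633 by limma). Probes for copies such as Rps12l4 and Rpl37al2 may also bind the parent transcript and processed pseudogenes. The RefSeq table lists 1192 symbols that fit the member rule, 883 of them pseudogenes, so the transcript behind such a signal is uncertain.

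Rps26 had the widest spread in each of the 4 groups, and its only probe was dim. The mean signal of that probe was 123, where the 75th percentile of the arrays lay at 553 to 924. The part of this low signal in the spread and the differences was not tested. Rps26 sits at the mRNA exit of the small subunit and touches the mRNA upstream of the start codon. Its level was -4.72, -3.56, -2.57 and -2.39 in the controls, -2.10, -3.09, -3.03 and -3.24 at Fe day 5, -3.22, -2.44, -2.31 and -1.54 at Fe day 15 and -2.14, -1.81, -3.10 and -2.38 at Fe day 30. The controls alone spanned more than the gap between any group means, and the residual SD was 0.739. The differences of 0.44, 0.93 and 0.95 had intervals of -0.60 to 1.48, -0.10 to 1.97 and -0.085 to 1.99, and the Fe day 15 and Fe day 30 means were 1.91- and 1.93-fold above the controls with adjusted p of 0.473 and 0.646 by limma. Control replicate 1 was the lowest array for both Rps26 and Rpl37al2. Fe day 15 replicate 4 and Fe day 30 replicate 2 were the highest pair for Rps26, Rpl37al2 and Rpl34. Rpl34, chosen after its values were seen, measured 3.89 and 3.86 on these arrays and 3.30 to 3.80 on the others, and was higher than all controls in all 4 Fe day 30 rats with a difference of 0.23 (adjusted p = 0.661). Fe day 15 replicate 4 also stood apart in microglia markers, whose median over 10 of 10 measured genes was 1.02 above the control mean, against -0.21 to -0.12 on the other Fe day 15 arrays, and in dentate granule cell markers, at -0.78 over 5 of 6 genes against -0.25 to -0.095. The summed level of the microglia markers was 32.0 to 34.9 in the controls, 35.2 to 40.4 at Fe day 5, 30.6 to 68.5 at Fe day 15 and 25.1 to 60.2 at Fe day 30. Without that array the Fe day 15 differences were 0.65 for Rps26, 0.23 for Rpl37al2 and -0.024 for Rpl34, in place of 0.93, 0.39 and 0.10, and the median over the 75 members was -0.024. The part of these markers in the values was not tested.

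**Figure D5:**
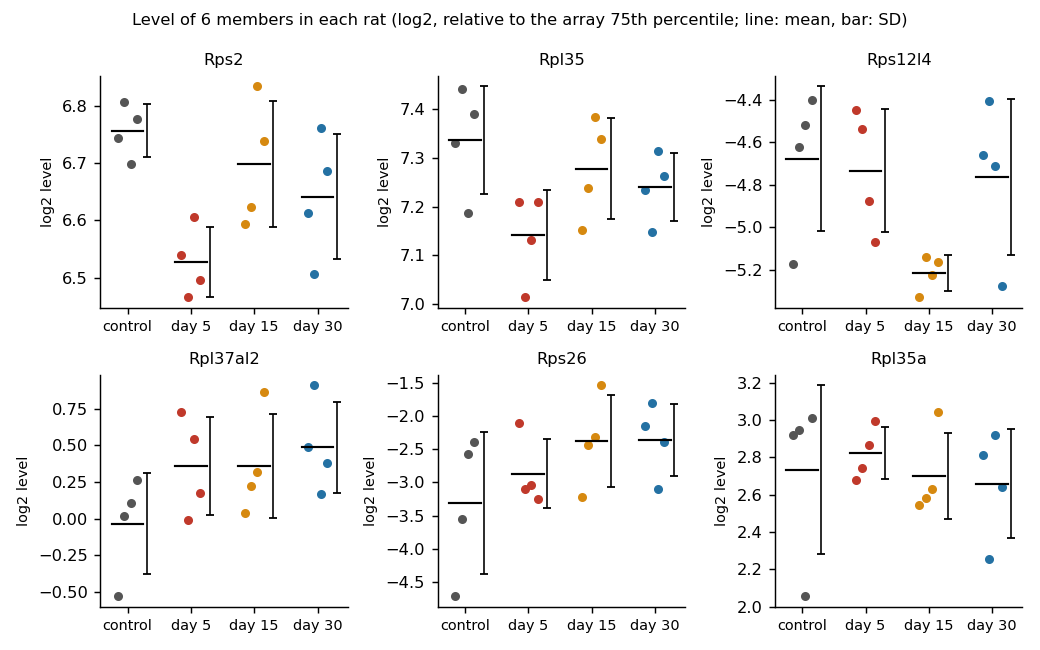
Level in each rat (y, log2 relative to the array's 75th percentile, a separate scale for each panel) of Rps2, Rpl35, Rps12l4, Rpl37al2, Rps26 and Rpl35a in the 4 groups (x). Points are rats, lines group means and bars SD (n = 4). Rps2 at Fe day 5 lies below the controls, Rps26 spans 3.18 over the 16 arrays, and a single control stands low for Rpl35a.

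Members much used as reference genes or known for other roles had small differences. Rplp0, the stalk protein often used to normalise quantitative PCR, had means of 1.21 ± 0.090 (SD, n = 4) in the controls, 1.14 ± 0.11 at Fe day 5, 1.18 ± 0.080 at Fe day 15 and 1.19 ± 0.043 at Fe day 30. Its intervals against the controls were -0.23 to 0.077, -0.18 to 0.12 and -0.18 to 0.12. The stalk partners Rplp1 and Rplp2, which recruit elongation factors with it, differed by -0.16, -0.077 and -0.11 and by -0.073, -0.025 and -0.014 at Fe day 5, Fe day 15 and Fe day 30. For Rpl13a, which is also part of an inhibitor complex of interferon-induced mRNAs, the values were -0.15, -0.083 and -0.15, and its 4 Fe day 30 rats, at 6.41, 6.51, 6.62 and 6.65, did not overlap the controls, at 6.71, 6.75, 6.65 and 6.66 (adjusted p = 0.647 by limma). Rps18, with a range of group means of 0.028, differed by -0.021, -0.025 and 0.0032. Rpl32 differed by -0.064, -0.027 and -0.065 and Rpl19 by 0.030, 0.13 and 0.053, and all intervals of Rpl32 lay between -0.21 and 0.12. A second Rpl19 probe gave -0.011, 0.13 and -0.13, of the other sign at Fe day 5 and Fe day 30. For Fe day 30 against Fe day 15 it gave -0.26 (unadjusted p = 0.00935 by limma), where the brightest probe gave -0.078.

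Rps6, whose phosphorylation reports mTOR activity, measured 7.52, 7.54, 7.45 and 7.49 in the controls, 7.44, 7.29, 7.45 and 7.56 at Fe day 5, 7.52, 7.44, 7.55 and 7.54 at Fe day 15 and 7.34, 7.39, 7.59 and 7.51 at Fe day 30, with all groups overlapping. Its differences were -0.062, 0.013 and -0.042 with intervals of -0.21 to 0.091, -0.14 to 0.17 and -0.19 to 0.11. Rpl5 and Rpl11, which together with 5S RNA bind Mdm2 when ribosome assembly fails, differed by -0.11, -0.026 and -0.022 and by 0.025, 0.092 and 0.038. Rpl11 was higher than all controls in the 4 Fe day 15 rats, at 5.62, 5.61, 5.63 and 5.84 against 5.60, 5.61, 5.58 and 5.55, with an adjusted p of 0.641 by limma. Rps19, the gene most often altered in Diamond-Blackfan anaemia, differed by -0.074, -0.0074 and -0.052. Rpsa, also known as a laminin receptor, differed by -0.063, 0.060 and -0.031, Rps27a, made as a fusion with ubiquitin, by -0.041, 0.055 and 0.013, and Rpl10a by -0.12, -0.0037 and -0.089. None of these genes was called.

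The 4 members with the smallest range of group means were Rpl36al1, Rps18, Rpl30 and Rpl23. Rpl36al1 measured 5.01, 5.03, 5.01 and 5.06 in the controls, 5.02, 4.91, 4.99 and 5.12 at Fe day 5, 5.03, 4.96, 5.04 and 5.07 at Fe day 15 and 4.98, 5.05, 4.99 and 5.11 at Fe day 30, a range of group means of 0.022. Its interval at Fe day 15 ran from -0.13 to 0.13. Rpl30 and Rpl23 had ranges of 0.028 and 0.042. Rpl22l1, the paralog that can replace Rpl22 in the ribosome, differed by 0.086, 0.0035 and 0.029, and Rpl22 by -0.056, -0.090 and -0.011. Their intervals at Fe day 5 were -0.093 to 0.27 and -0.23 to 0.12, and neither was called.

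Several kept probes were available for 25 member genes, and their fitted differences were compared. The spread between probes of a gene had a median of 0.043 at Fe day 5, 0.042 at Fe day 15 and 0.044 at Fe day 30, and the largest were 0.27 at Fe day 15 and 0.34 at Fe day 30. Signs differed between probes in 5, 8 and 10 genes. The widest spreads at those 2 days were those of Rpl13 at Fe day 15 and Rpl21 at Fe day 30, which, like Rpl35a, were chosen after their values were seen. A second Rpl13 probe was low in control replicate 3, at 4.47 against 4.97 to 5.06 in the other controls, where the brightest Rpl13 probe read 5.88 against 5.95 to 5.99. An Rpl21 probe was at 3.64 in Fe day 30 replicate 3 and between 5.09 and 5.35 elsewhere, while the brightest Rpl21 probe was at 6.12 on that array. Rpl35a was low in control replicate 3 by both probes, at 2.06 against 2.92 to 3.01 and at 1.77 against 2.09 to 2.13 in the other controls.

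No member was called between Fe days. limma called 0 of 75 members in each comparison between Fe days, as it called 0% of all features. At an unadjusted p under 0.05, Fe day 15 against Fe day 5 had 1 member higher, Rps2, and 1 lower, Rps12l4, beside 4.05% and 3.14% of all features (7.2% in all). Fe day 30 against Fe day 15 had 1 higher, Rps12l4, beside 2.82% of all features higher and 6.49% in both directions. Fe day 30 against Fe day 5 had 0 of 75 beside 2.96% of all features. The median member differences were 0.043, -0.029 and 0.022. In the F-test over the 4 groups 0 members and 0% of features were called, and 1 member, Rps2, had an unadjusted p under 0.05 (1.33%, beside 8.34% of all features).

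Members with and without the long run within 5 bases of the annotated start are set side by side. Lack of the run there does not show that the mRNA lacks a TOP sequence. The 30 genes with at least 7 C or T after the C had medians of -0.055, -0.032 and -0.048 at Fe day 5, Fe day 15 and Fe day 30, and the 30 without it had -0.065, -0.0048 and -0.042. The 15 members without a promoter window had -0.028, 0.00023 and -0.038. No test was made of these lists, which share arrays, and 0 members of each were called.

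Other genes of the pathway are given by list. Among 22 measured elongation factors and other genes with TOP mRNAs, 0 passed at an unadjusted p under 0.05 at each Fe day. All features had 10.3%, 11.5% and 7.77% at this level, and the medians of the list were -0.049, -0.028 and -0.046. Eef1a1, which brings aminoacyl-tRNA to the ribosome, differed by -0.12, -0.12 and -0.12, and Eef2, which moves the ribosome along the mRNA, by -0.13, -0.025 and -0.10. Among 33 genes of ribosome assembly and rRNA synthesis 0 were called, and at an unadjusted p under 0.05 the counts were 4 lower at Fe day 5, 3 lower and 2 higher at Fe day 15, and 2 lower at Fe day 30. These are 12.1%, 15.2% and 6.06% of the list, beside 10.3%, 11.5% and 7.77% of all features. At Fe day 5 they were Ubtf, the RNA polymerase I factor, at -0.28 (adjusted p = 0.473 by limma), the assembly factors Bop1 at -0.26 and Utp4 at -0.23 and Fbl, the rRNA methyltransferase fibrillarin, at -0.33. At Fe day 15 Pno1, a factor of small subunit maturation, differed by -0.33 (adjusted p = 0.237) and Polr1b, an RNA polymerase I subunit, by 0.37 (adjusted p = 0.306). The medians of this list were -0.019, 0.0046 and -0.046.

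Of 13 measured genes that control ribosomal protein synthesis, 2 were lower at Fe day 5 at an unadjusted p under 0.05, where 6.28% of all features were lower, and 0 at Fe day 15 and Fe day 30. These were Rps6kb1, the kinase of Rps6, at -0.18 (adjusted p = 0.477 by limma), and Mlst8, an mTOR partner, at -0.17 (adjusted p = 0.474). Mtor differed by 0.10, 0.15 and 0.13. For 12 reference genes that are no ribosomal proteins, 0 passed at this level at each Fe day, beside 10.3%, 11.5% and 7.77% of all features. Their medians were -0.051, 0.0067 and -0.043. The 63 mitochondrial ribosomal protein genes, which form a separate ribosome inside mitochondria, had medians of -0.00041, 0.027 and -0.016, with 0 called. At an unadjusted p under 0.05, 2 of them were higher at Fe day 5, 1 was higher and 1 lower at Fe day 15, and 0 passed at Fe day 30. These are 3.17%, 3.17% and 0% of the list, beside 10.3%, 11.5% and 7.77% of all features.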

How the data were processed

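Hippocampal RNA of 16 rats was read on 16 Agilent 1-colour arrays, 4 a group. The deposited scanner files give, per the file headers, an intensity for each spot from Agilent Feature Extraction 9.5.3.1, the processed signal, on a linear scale after background subtraction and detrending. The deposited series table held the same intensity values in 100% of entries (relative tolerance 1e-06) and gave no separate alternative. The deposited marks for spots above background, non-uniform spots and outliers were used as given. No step that scales arrays to one another is named in the sources used here.

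The log2 of the deposited processed signal minus the 75th percentile of its array was used. Marked outlier spots were left out, spots of a probe were averaged, and a probe was kept where all 4 arrays of 1 or more groups had it well above background. Symbols came from the array's RefSeq accessions through a RefSeq gene table (GRCr8). The brightest probe stood for each gene, which left 26565 features. A model of group means over all 16 arrays was fitted in limma 3.58.1 (R 4.3.3), with 12 residual degrees of freedom and Benjamini-Hochberg adjustment over all features in each of 6 comparisons and the F-test. A feature was called at an adjusted p under 0.05, and tests were two-sided. The fit was tested on simulated data. The p-values rest on the spread between rats of a group, and the number of rats limits the precision. With 1 array for each rat, differences between rats and between arrays cannot be told apart in that spread.

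The members and gene lists were chosen with earlier results of these data known. The members named with values are those of lowest p in each comparison under an unadjusted p of 0.05, the lowest F p, the smallest range of group means, measured paralogs with their parents, well-known members, and the widest spread in each group. Alternatives were normexp background correction (on median spot intensity), quantile, cyclic loess and median scaling, other filters and probe rules, array weights, 2 groups alone, replicate and slide blocks, and leaving out arrays. The array design predates GRCr8, and probe sequences were not used here. The values of 1 member are not reported here.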

Additional observations from a re-analysis of the deposited data

Results flagged for a closer look

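Among 300 sets of 4 values (75 members in 4 groups), 12 (4.00%) had a lowest or highest rat set apart from the other 3 by more than Dixon's 95% critical value, the gap being divided by the range of the set. Chance sets about 1 in 20 apart. Control replicate 3 accounted for 4 of the 12, among them low values of Rpl35a and Rps20 and a high value of Rps24.

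Rpl35a was at 2.06 in control replicate 3 against 2.92 to 3.01, and its other probe was low there too, at 1.77. Rpl11 was at 5.84 in Fe day 15 replicate 4 and at 5.61 to 5.63 in the other 3 rats of that group. Its mean difference from the controls at Fe day 15 was 0.092, and 0.038 without that array. The array also had high microglia markers, at a median of 1.02 above the control mean against -0.21 to -0.12 on the other Fe day 15 arrays, and their part in the value was not tested.

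The median of all features relative to the control mean was -0.088 in Fe day 30 replicate 3, against 0.0014 to 0.016 in the other Fe day 30 arrays. This array also had the highest choroid plexus markers. Its member median was 0.013, which is 0.10 above that of all features.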

How the results depend on the processing

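In 30 alternatives 0 members were called in any of the 6 comparisons, and in 29 with an F-test 0 were called by it. The median member difference moved by more than 0.061, the SD of the array medians within a group, in 4 cases: 0.027 at Fe day 5 with quantile normalization, 0.020 at Fe day 5 and 0.023 at Fe day 30 with cyclic loess, and 0.032 at Fe day 30 with the slide block. The cause was not tested. Leaving out each array in turn gave medians of -0.084 to -0.033 at Fe day 5, -0.024 to 0.0068 at Fe day 15 and -0.065 to -0.012 at Fe day 30, with 0 called in each comparison. Array weights raised the members under an unadjusted p of 0.05 from 3 to 12 at Fe day 5 and from 1 to 12 at Fe day 30, with 0 called. Those 12 are 16% of the members, beside 17.3% and 14.3% of all features in the weighted fit. Of 300 alternative values of the named differences, 299 kept their sign, and 1, Rps12l4 between Fe day 15 and Fe day 5 under normexp background correction, turned to 0.016.

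Same-numbered arrays had correlations of deviations of -0.41 to 0.39 over 24 pairs, 5 of them over 0.1, so the numbers were not taken to pair the rats. As a hint from the data, 8 of 16 arrays correlated best with an array of their own number, which 3 of the 12 arrays of the other groups carry. Each number occurs once in each group, so a replicate block leaves the medians at -0.057, -0.011 and -0.044 by construction and can change only the error. With it 0 members were called, and 4, 1 and 0 had an unadjusted p under 0.05 at Fe day 5, Fe day 15 and Fe day 30. These are 5.33%, 1.33% and 0% of the members, beside 9.29%, 10.7% and 7.08% of all features in that fit. With 4 rats a group the median half-width of a member's 95% interval was 0.16.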
